A study of Mus musculus with 6 samples.

Results

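DNA replication and S phase genes were followed in mouse E14 embryonic stem cells exposed to low levels of 2 histone deacetylase inhibitors. The set held 60 genes written down by symbol, from the origin recognition complex and the replicative helicase to the polymerases, the nucleotide enzymes and the E2F transcription factors. A probeset of the array stood for a gene where the array annotation gave that symbol alone, and of several such probesets the one with the highest average was taken. All 60 were measured, among 19938 genes in all. E14 is an established mouse embryonic stem cell line, grown here with leukemia inhibitory factor and serum on primary embryonic fibroblasts whose division had been stopped with mitomycin C. The groups were cells given 0.5 mM valproic acid (VPA) for 16 h, cells given 0.2 mM sodium butyrate (NaBu) for 16 h, and untreated cells harvested alongside, with 2 samples each. RNA was taken from the whole culture, so it includes RNA of the feeder fibroblasts, and in such bulk RNA fewer cells in S phase and less RNA per cell cannot be told apart. Values are log2 expression as the authors deposited them after RMA, so a difference of -1 is a halving.

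Before a cell divides it copies its genome once. In G1 the origin recognition complex, with Cdc6 and Cdt1, loads the ring-shaped Mcm2-7 helicase onto origins, which is called licensing. Cyclin E with Cdk2 and the Dbf4-dependent kinase Cdc7 then turn the helicase on, Cdc45 and the GINS complex join it, and polymerases copy both strands behind it. Many of these genes are transcribed by E2F factors once the retinoblastoma proteins let go of them. Mouse embryonic stem cells have a short G1 phase and spend most of their cycle in S phase, and histone deacetylase inhibitors at high doses are known to arrest many cell types in G1.

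The promoters of the set carried E2F cores more often than promoters in general. RefSeq promoter windows of GRCm38.p6, which run from 250 bases before to 50 bases after an annotated start, were found for 50 of the 60 members. The other 10 were Ccne2, Gins1, Gins2, Gins4, Gmnn, Mcm4, Pole, Prim2, Rfc2 and Tipin. An E2F core (TTCCCGC or TTGGCGC, either strand) was present in a window of 30 of the 50 members, against 10.7% of the 15614 tested genes with a window. The NF-Y box CCAAT was present in 30 of 50, against 41.7%, and the cell cycle homology region TTTGAA in 10 of 50, against 17.3%. The 5 windows below belong to helicase subunits with nearly the same response to VPA, with and without a core, and to Cdca7 and Mcm10, which had the lowest VPA differences among the members with a window. They were chosen after the values were seen. Each is written 5' to 3' on the gene's strand, with E2F cores and CCAAT boxes in capitals.

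Mcm2 (chr6:88898731-88899030, minus strand): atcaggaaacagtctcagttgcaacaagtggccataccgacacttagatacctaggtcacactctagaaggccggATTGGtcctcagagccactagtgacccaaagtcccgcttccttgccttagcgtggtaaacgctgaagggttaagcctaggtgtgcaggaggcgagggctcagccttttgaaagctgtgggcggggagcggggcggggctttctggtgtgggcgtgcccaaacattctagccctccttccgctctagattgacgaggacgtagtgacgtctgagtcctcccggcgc

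Mcm3 (chr1:20820263-20820562, minus strand): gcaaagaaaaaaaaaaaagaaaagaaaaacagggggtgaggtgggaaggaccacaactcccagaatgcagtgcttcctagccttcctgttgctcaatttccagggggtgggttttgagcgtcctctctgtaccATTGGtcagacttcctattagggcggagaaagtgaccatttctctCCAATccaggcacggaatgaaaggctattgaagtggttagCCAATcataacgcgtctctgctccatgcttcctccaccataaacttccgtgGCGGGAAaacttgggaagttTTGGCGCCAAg

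Mcm6 (chr1:128359656-128359955, minus strand): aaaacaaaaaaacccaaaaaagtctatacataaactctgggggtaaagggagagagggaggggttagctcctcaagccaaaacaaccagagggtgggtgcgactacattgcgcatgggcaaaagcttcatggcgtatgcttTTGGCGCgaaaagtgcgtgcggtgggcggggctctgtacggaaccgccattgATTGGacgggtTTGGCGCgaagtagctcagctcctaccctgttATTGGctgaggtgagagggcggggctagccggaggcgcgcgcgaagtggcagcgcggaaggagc

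Mcm10 (chr2:5012742-5013041, minus strand): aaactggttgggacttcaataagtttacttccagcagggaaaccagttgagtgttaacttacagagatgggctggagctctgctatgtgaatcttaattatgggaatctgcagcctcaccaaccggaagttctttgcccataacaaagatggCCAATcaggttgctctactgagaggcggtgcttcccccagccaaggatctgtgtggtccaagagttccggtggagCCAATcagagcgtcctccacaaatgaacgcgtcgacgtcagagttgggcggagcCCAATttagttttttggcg

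Cdca7 (chr2:72475969-72476268, plus strand): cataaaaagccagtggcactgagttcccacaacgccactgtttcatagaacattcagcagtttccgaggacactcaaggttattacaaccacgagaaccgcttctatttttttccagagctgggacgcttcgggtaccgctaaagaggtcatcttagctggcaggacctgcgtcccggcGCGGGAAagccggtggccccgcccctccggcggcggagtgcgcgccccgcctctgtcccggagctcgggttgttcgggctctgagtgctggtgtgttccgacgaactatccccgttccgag

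The Mcm3 window holds 3 core matches, of which the pair 40 and 43 bases after the start overlap on opposite strands. Mcm6 has the core TTGGCGC 109 and 46 bases before its start, and Cdca7 has TTCCCGC, on the other strand, 71 bases before it. No core is written in the Mcm2 or Mcm10 window. The last bases of the Mcm10 window, ttggcg, match the start of TTGGCGC, and a core that crosses the window edge is not counted. Mcm2 has 1 CCAAT box and Mcm10 has 3.

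With VPA, DNA replication genes mostly stood slightly below untreated cells. The median difference of the 60 members was -0.19 on the log2 scale, or -12.3%, and 55 of 60 lay below 0, against 47.0% of all genes and a median of 0.01 over all genes. Among the 9969 genes at or above the median level, which include all 60 members, the median was -0.01 and 52.0% lay below 0. The member median was -0.15 between the replicate 1 arrays and -0.20 between the replicate 2 arrays, and 48 members lay below 0 in both, against 28.0% of all genes, and 1 above 0 in both, against 32.0%. For 27 of 60 members both VPA arrays lay below both untreated arrays, against 15.6% of all genes, and for 0 members both lay above, against 19.1%. Of the 9969 genes at or above the median level, 35.4% lay below 0 in both replicate pairs. For 1932 of the 9969 both VPA arrays lay below both untreated arrays, and for 1667 both lay above. No gene passed the test. limma called 0 members and 0.0% of all genes at an adjusted p under 0.05, with a smallest adjusted p of 0.964. At an unadjusted p under 0.05 it had 3 members lower, Gmnn, Mcm10 and Tk1, against 2.18% of all genes, and 0 higher, against 2.74%. With the replicate number as a block there were 14 lower and 0 higher, against 6.01% and 7.21%, and a smallest adjusted p of 0.201. Of the 9969 genes at or above the median level, 940 were lower and 833 higher with the block. The 14 were Mcm2, Mcm6, Mcm10, Cdc6, Gmnn, Dbf4, Gins2, Pold1, Tk1, Cdk2, Cdc25a, E2f3, Cdca7 and Timeless, and for these the blocked 95% interval lies below 0. In unblocked fits, which carry some of the gap between replicate numbers, single arrays were left out. The median was then -0.08 without VPA replicate 2 and -0.12 without control replicate 1, against -0.28 without VPA replicate 1.

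**Figure D1:**
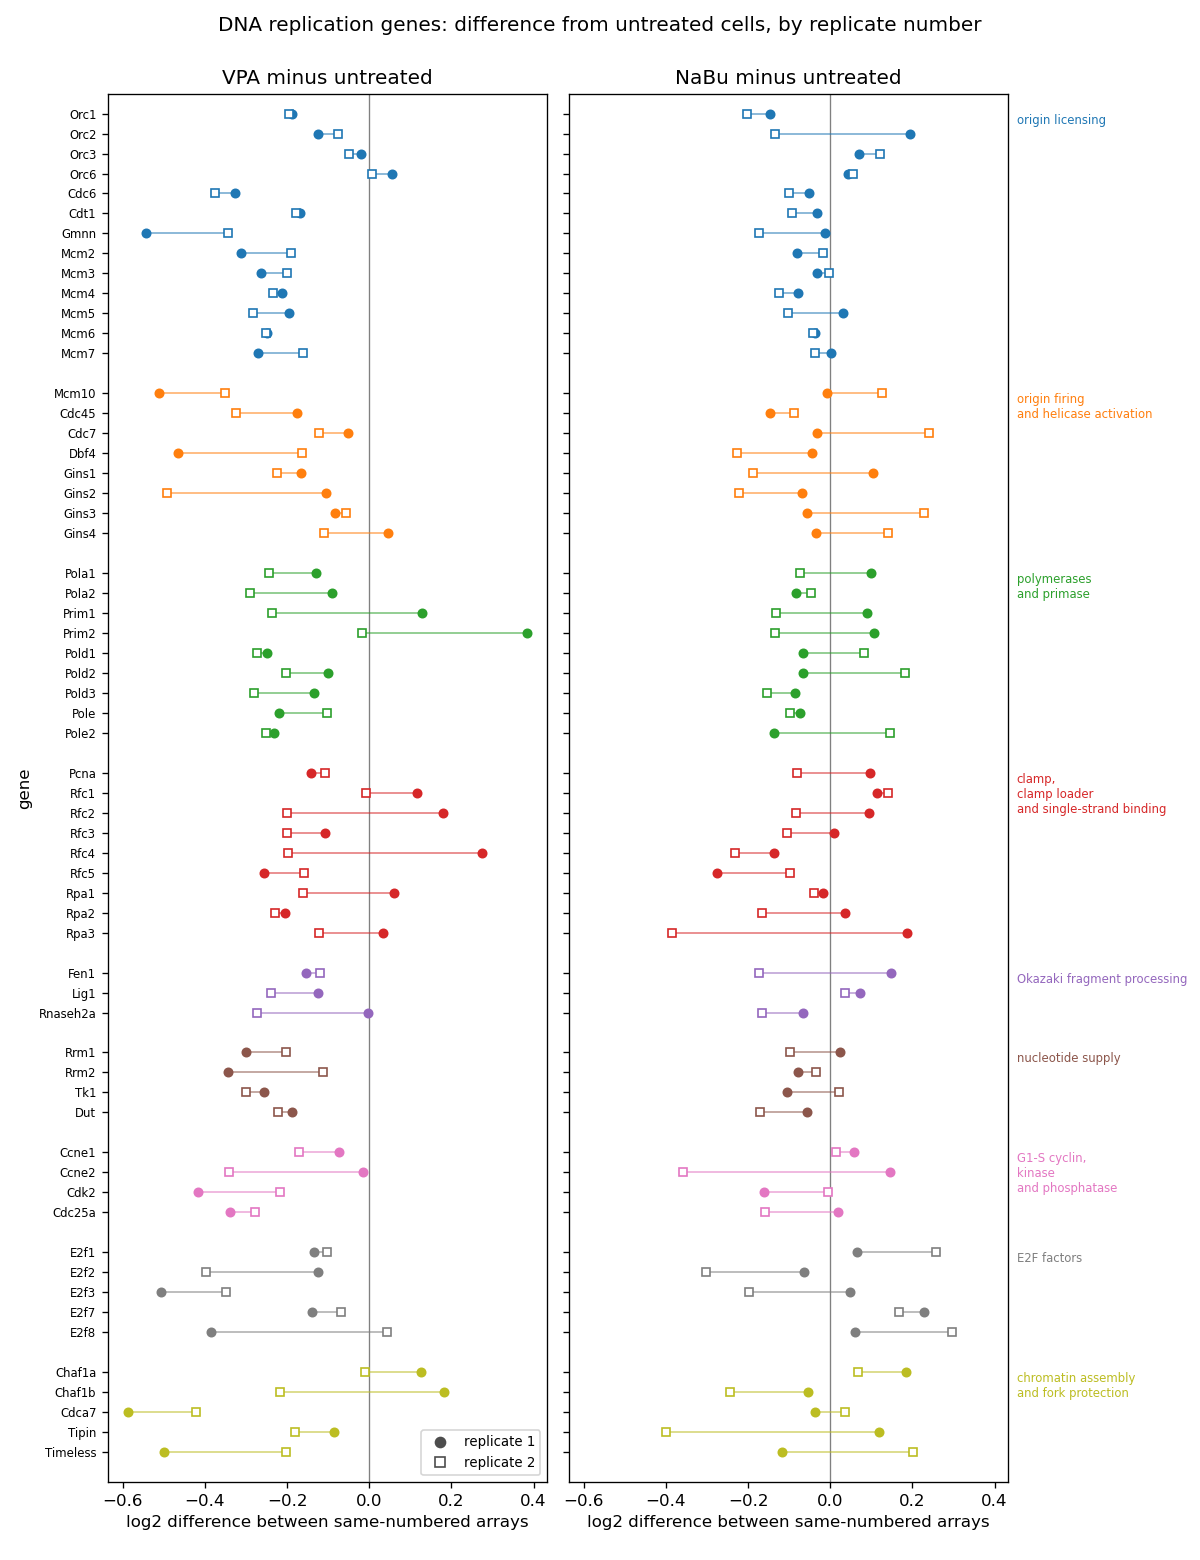
Log2 difference from untreated cells for each of the 60 genes, VPA left and NaBu right, with a filled circle for the replicate 1 arrays and an open square for the replicate 2 arrays, grouped by role. With VPA 48 genes have both points below 0, and with NaBu 23 do.

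Subunits of the licensing helicase had close values with VPA. Mcm2 had 10.60 and 10.47 with VPA, 10.83 and 10.64 with NaBu, and 10.91 and 10.66 in untreated cells. The VPA arrays were both below all 4 others, and the NaBu and untreated arrays overlapped. Its difference was -0.25 (95% interval -0.60 to 0.10, from limma and for 1 gene at a time) for VPA and -0.05 for NaBu. Mcm6, another subunit of the same ring, had 10.42 and 10.25 with VPA, 10.63 and 10.45 with NaBu, and 10.67 and 10.50 in untreated cells. Both VPA arrays were below both untreated arrays, by -0.25 for replicate 1 and -0.25 for replicate 2, and the difference was -0.25 (95% interval -0.58 to 0.08). The other 4 subunits had VPA differences of -0.23 (Mcm3), -0.22 (Mcm4), -0.24 (Mcm5) and -0.22 (Mcm7), so that all 6 lay between -0.25 and -0.22. For NaBu the 6 subunits lay between -0.10 and -0.02. The printed windows of Mcm2, with no E2F core, and of Mcm3 and Mcm6, with cores, were chosen because these differences are nearly the same. Their likeness is therefore not a result about the core.

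The loaders of the helicase were less uniform. Gmnn, which encodes geminin, the protein that binds Cdt1 and blocks a second licensing in the same cycle, had 6.14 and 6.41 with VPA, 6.67 and 6.58 with NaBu, and 6.68 and 6.76 in untreated cells. The VPA pair was below all 4 others, and both NaBu arrays lay below both untreated arrays. Its VPA difference was -0.44 (95% interval -0.78 to -0.11), with -0.54 for replicate 1 and -0.34 for replicate 2. Cdc6, an ATPase that loads the helicase, had 8.32 and 7.75 with VPA, 8.59 and 8.03 with NaBu, and 8.65 and 8.13 in untreated cells. Replicate 2 stood below replicate 1 in each condition, at -0.56 with VPA, -0.57 with NaBu and -0.52 in untreated cells, and the groups overlapped. Between same-numbered arrays the VPA values were -0.33 and -0.38 from untreated cells, with a mean of -0.35 (95% interval with the replicate block -0.595 to -0.108). Cdt1, its partner in loading, had 9.96 and 9.69 with VPA, 10.09 and 9.78 with NaBu, and 10.12 and 9.87 in untreated cells. These groups overlapped, and the VPA difference was -0.17 (95% interval -0.59 to 0.24). It was -0.17 for replicate 1 and -0.18 for replicate 2, with a blocked 95% interval of -0.42 to 0.07. Orc1, the regulated subunit of the origin recognition complex, had 7.90 and 7.37 with VPA, 7.94 and 7.37 with NaBu, and 8.09 and 7.57 in untreated cells. All 3 conditions were split by replicate number here, and its difference was -0.19 for VPA and -0.17 for NaBu. For VPA it was -0.19 for replicate 1 and -0.19 for replicate 2. The other subunits measured stood near 0 with VPA, at -0.10 for Orc2, -0.04 for Orc3 and 0.03 for Orc6. Of the 13 licensing genes 12 lay below 0 with VPA, with a median of -0.22, and 10 with NaBu, with a median of -0.04.

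Factors that switch the helicase on also had a median of -0.22 with VPA, and all 8 lay below 0. Mcm10, a scaffold that is needed to activate the helicase, had 8.79 and 8.68 with VPA, 9.30 and 9.16 with NaBu, and 9.30 and 9.03 in untreated cells. All 4 other arrays were above both VPA arrays, and the NaBu and untreated arrays overlapped. Its VPA difference was -0.43 (95% interval -0.77 to -0.09). Cdc45, a subunit of the active helicase, had 8.67 and 8.54 with VPA, 8.70 and 8.78 with NaBu, and 8.85 and 8.87 in untreated cells. Both VPA arrays were again the lowest of the 6, and the difference was -0.25 (95% interval -0.53 to 0.03). Dbf4, the regulatory subunit of the kinase that triggers origins, stood at -0.31, and its catalytic partner Cdc7 at -0.09. Among the subunits of the GINS complex, Gins2 stood at -0.30, with -0.10 for replicate 1 and -0.49 for replicate 2, Gins1 at -0.19, Gins3 at -0.07 and Gins4 at -0.03. With NaBu 4 of the 8 lay below 0 and the median was 0.01.

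**Figure D2:**
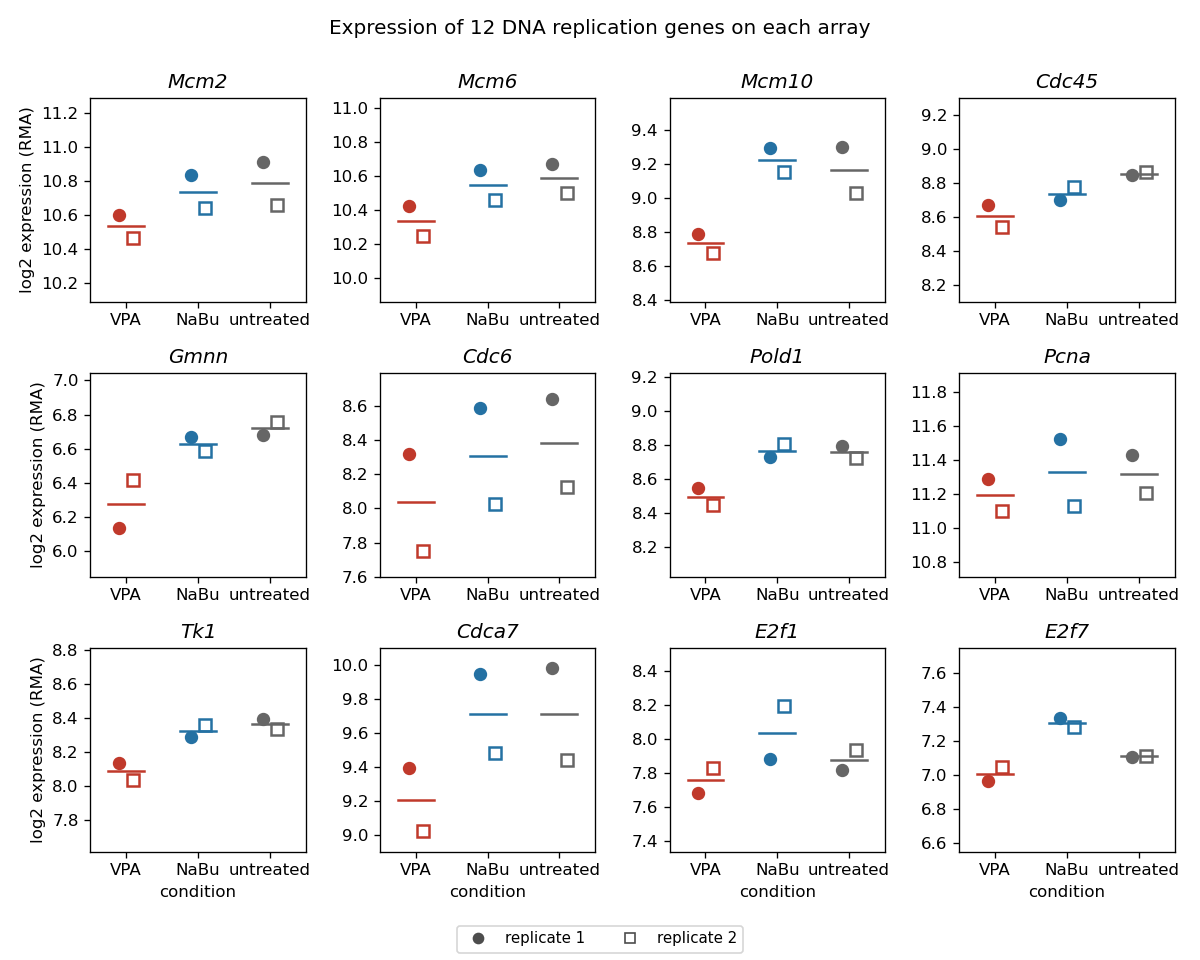
Log2 expression of 12 genes on every array, by condition, with a filled circle for replicate 1, an open square for replicate 2 and a line for the mean of the 2 arrays; each panel spans 1.2 log2 units. The VPA arrays are both below both untreated arrays for Mcm2, Mcm6, Mcm10, Cdc45, Gmnn, Pold1, Tk1, Cdca7 and E2f7. They overlap the untreated arrays for Cdc6, Pcna and E2f1. The 12 genes were picked for display, and among all 60 members the VPA arrays lay below both untreated arrays for 27, against 15.6% of all genes.

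With VPA the polymerase genes all lay below 0, and the primase subunits lay around it. Pold1, the catalytic subunit of the lagging-strand polymerase delta, had 8.55 and 8.45 with VPA, 8.73 and 8.80 with NaBu, and 8.80 and 8.72 in untreated cells. The lowest arrays were both from VPA, and the NaBu and untreated arrays overlapped. The VPA difference was -0.26 (95% interval -0.54 to 0.02), against 0.01 (95% interval -0.27 to 0.29) for NaBu. Pola1, the catalytic subunit of polymerase alpha, which extends the primers, had 9.89 and 9.92 with VPA, 10.12 and 10.09 with NaBu, and 10.02 and 10.17 in untreated cells. Both VPA arrays lay below both untreated arrays, and the difference was -0.19 (95% interval -0.47 to 0.09). The accessory subunits Pola2, Pold2 and Pold3 stood at -0.19, -0.15 and -0.21, and those of the leading-strand polymerase epsilon at -0.16 (Pole, catalytic) and -0.24 (Pole2). Of the primase subunits, the catalytic Prim1 stood at -0.05 and Prim2 at 0.18. Prim2 had the highest VPA difference of the 60 members, with 0.38 for replicate 1 and -0.02 for replicate 2, so that the value came from 1 pair of arrays. In all 8 of 9 polymerase and primase genes lay below 0 with VPA, with a median of -0.19, and 5 of 9 with NaBu, with a median of -0.01.

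The clamp, its loader and the single-strand binding protein stood closer to 0 with VPA, at a median of -0.05, with 4 of 9 below 0 in both replicate pairs. Pcna, the sliding clamp that holds polymerases on DNA, had 11.29 and 11.10 with VPA, 11.53 and 11.13 with NaBu, and 11.43 and 11.21 in untreated cells. The VPA and untreated arrays overlapped, and the difference was -0.12 (95% interval -0.55 to 0.30). A second Pcna probeset, with the same accessions, gave -0.13. Rfc4, a subunit of the clamp loader, had 10.31 and 10.20 with VPA, 9.90 and 10.16 with NaBu, and 10.03 and 10.40 in untreated cells. VPA replicate 1 was above untreated replicate 1 and VPA replicate 2 below untreated replicate 2, with a difference of 0.04 (95% interval -0.37 to 0.45), and the NaBu difference was -0.18 (95% interval -0.59 to 0.23). Rfc5, of the same complex, had 9.98 and 9.86 with VPA, 9.96 and 9.93 with NaBu, and 10.24 and 10.02 in untreated cells. Both treated groups lay below both untreated arrays, with -0.21 (95% interval -0.52 to 0.10) for VPA and -0.19 (95% interval -0.50 to 0.12) for NaBu. The large subunit Rfc1 stood at 0.05, Rfc2 at -0.01 and Rfc3 at -0.15 with VPA. Among the subunits of replication protein A, Rpa1 stood at -0.05, Rpa2 at -0.22 and Rpa3 at -0.04. The probesets of Rpa3 disagreed, since the dimmer one gave 0.19 for VPA and 0.23 for NaBu, against -0.10 for NaBu from the one used.

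Enzymes that finish the lagging strand and supply nucleotides were all below 0 with VPA. For strand joining, the flap nuclease Fen1 stood at -0.14, the ligase Lig1 at -0.18 and Rnaseh2a, the catalytic subunit of the RNase that removes RNA from DNA, at -0.14. Tk1, the thymidine kinase of S phase, had 8.14 and 8.04 with VPA, 8.29 and 8.36 with NaBu, and 8.39 and 8.34 in untreated cells. Again the VPA arrays were the lowest of the 6, and the NaBu and untreated arrays overlapped. Its VPA difference was -0.28 (95% interval -0.55 to -0.00), and a second, dimmer probeset gave -0.19. The annotation gives the 2 probesets lists of accessions that largely overlap and no position, so it does not settle whether each measures Tk1 alone, and their mean gave -0.23. Rrm2, the S phase subunit of ribonucleotide reductase, had 10.46 and 10.23 with VPA, 10.73 and 10.31 with NaBu, and 10.81 and 10.34 in untreated cells. The arrays overlapped, with -0.34 for replicate 1 and -0.11 for replicate 2, and the value was 0.0041 without control replicate 1. Its partner Rrm1 stood at -0.25. Dut, which destroys dUTP so that uracil is not built into DNA, had 8.47 and 8.19 with VPA, 8.60 and 8.24 with NaBu, and 8.66 and 8.41 in untreated cells. Here too the VPA and untreated arrays overlapped, and the difference was -0.20 (95% interval -0.65 to 0.24). All 4 nucleotide enzymes lay below 0 in both replicate pairs with VPA, with a median of -0.24, against a median of -0.05 with NaBu.

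The cyclins, kinase and phosphatase that drive entry into S phase stood below untreated cells by unequal amounts with VPA. Ccne1, one of the E cyclins, had 9.93 and 9.38 with VPA, 10.06 and 9.56 with NaBu, and 10.01 and 9.55 in untreated cells. The replicate numbers were further apart than the conditions, the groups overlapped, and the VPA difference was -0.12 (95% interval -0.78 to 0.53). With the replicate number as a block the interval was -0.37 to 0.12. Ccne2, the other E cyclin, had 6.66 and 6.17 with VPA, 6.82 and 6.15 with NaBu, and 6.68 and 6.51 in untreated cells. The groups overlapped, with a VPA difference of -0.01 for replicate 1 and -0.34 for replicate 2, with a NaBu difference of -0.11. Cdc25a, the phosphatase that removes the inhibitory mark from Cdk2, had 9.09 and 9.04 with VPA, 9.45 and 9.15 with NaBu, and 9.43 and 9.31 in untreated cells. The VPA arrays were the lowest, and the NaBu and untreated arrays overlapped. The VPA difference was -0.31 (95% interval -0.65 to 0.03). Cdk2 itself stood at -0.32 with VPA and -0.08 with NaBu.

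All 5 E2F factors lay below 0 with VPA, and 2 of 5 with NaBu. E2f1, an activator of S phase genes, had 7.68 and 7.83 with VPA, 7.88 and 8.19 with NaBu, and 7.82 and 7.93 in untreated cells. The VPA and untreated arrays overlapped, while NaBu replicate 2 was the highest of the 6, and the differences were -0.12 (95% interval -0.48 to 0.24) for VPA and 0.16 (95% interval -0.20 to 0.52) for NaBu. E2f7, an atypical member that represses E2F targets, had 6.97 and 7.05 with VPA, 7.33 and 7.28 with NaBu, and 7.11 and 7.12 in untreated cells. The NaBu arrays were both above all others and the VPA arrays both below all others, with -0.10 (95% interval -0.37 to 0.16) for VPA and 0.20 (95% interval -0.07 to 0.47) for NaBu. E2f8, the other atypical repressor, stood at -0.17 with VPA and 0.18 with NaBu. Its VPA difference was -0.39 for replicate 1 and 0.04 for replicate 2. The activators E2f2 and E2f3 stood at -0.26 and -0.43 with VPA, and at -0.18 and -0.07 with NaBu.

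Of the genes for chromatin assembly and fork protection, Cdca7, a partner of the remodeller Hells, had the lowest VPA difference of the 60 members. Cdca7 had 9.40 and 9.02 with VPA, 9.95 and 9.48 with NaBu, and 9.98 and 9.44 in untreated cells. Both VPA arrays lay below the others, and the NaBu and untreated arrays overlapped. The VPA difference was -0.51 (95% interval -1.11 to 0.10), with -0.59 for replicate 1 and -0.42 for replicate 2, and the NaBu difference was -0.00. With the replicate number as a block the VPA interval was -0.76 to -0.25, which lies below 0, and the adjusted p of limma was 0.201. Timeless, which keeps polymerase and helicase coupled, stood at -0.35, and its partner Tipin at -0.13. Chaf1a, the large subunit of the histone chaperone CAF-1, had 8.58 and 8.50 with VPA, 8.64 and 8.57 with NaBu, and 8.45 and 8.51 in untreated cells. The VPA arrays overlapped the untreated ones and the NaBu arrays lay above them, with 0.06 (95% interval -0.21 to 0.33) for VPA and 0.13 (95% interval -0.15 to 0.40) for NaBu. Chaf1b, of the same chaperone, stood at -0.02 with VPA, with 0.18 for replicate 1 and -0.22 for replicate 2.

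With NaBu at 0.2 mM the set lay closer to untreated cells. The median of the 60 members was -0.04, against 0.01 for all genes, with 39 below 0, against 45.7% of all genes. In both replicate pairs 23 lay below 0, against 23.1% of all genes, 9 lay above 0, against 29.1%, and 28 had opposite signs. Both NaBu arrays lay below both untreated arrays for 6 members, against 11.2% of all genes, and above them for 4, against 12.7%. Of the 9969 genes at or above the median level, both NaBu arrays lay below for 699 and above for 1070. Of the same 9969 genes 42.3% lay below 0, and 21.1% did so in both replicate pairs. limma called 0 members at an adjusted p under 0.05, with 0.0% of all genes called, and 0 at an unadjusted p under 0.05, against 0.898% lower and 0.662% higher. With the replicate block it had 0 in either direction, against 2.2% lower and 2.4% higher. Members ranged from -0.19 for Rfc5 to 0.20 for E2f7. Between same-numbered arrays the member median was -0.03 for replicate 1 and -0.09 for replicate 2. In unblocked fits with 1 array left out the sign of the median varied. It was 0.05 without control replicate 1 and 0.07 without NaBu replicate 2, against -0.13 without NaBu replicate 1 and -0.11 without control replicate 2. These fits carry some of the gap between replicate numbers. For Mcm6 the NaBu difference was -0.04 (95% interval -0.37 to 0.29), and the interval includes the -0.25 of VPA. For Mcm10 it was 0.06 (95% interval -0.28 to 0.40), and the interval does not reach the -0.43 of VPA. The VPA interval of Mcm10, -0.77 to -0.09, overlaps it, and both differences share the untreated arrays. Mcm10 was also named for the size of its VPA statistics.

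**Figure D3:**
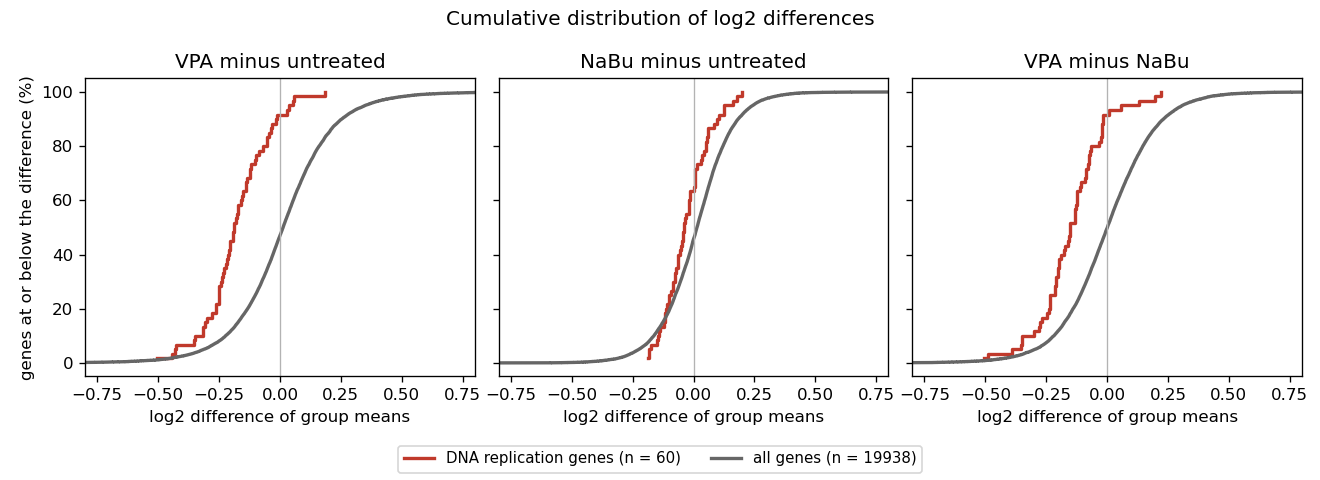
Cumulative share of genes at or below each log2 difference of group means, for the 60 DNA replication genes in red and all 19938 genes in grey. The red curve is left of the grey one for VPA minus untreated (medians -0.19 and 0.01) and for VPA minus NaBu (-0.15 and 0.00), and close to it for NaBu minus untreated (-0.04 and 0.01).

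The compounds were compared at their own doses, 0.5 mM for VPA and 0.2 mM for NaBu, so the comparison is of these treatments and not of matched doses. Both are short-chain fatty acids, with a branched chain in VPA and a straight one in butyrate. The median of the members was -0.15 for VPA minus NaBu, with 55 of 60 below 0, against 49.8% of all genes. In both replicate pairs 42 were below 0, against 28.6% of all genes, and 3 above 0, against 27.5%. For 26 members both VPA arrays lay below both NaBu arrays, against 14.6% of all genes, and for Chaf1b and Rfc4 they lay above, against 16.0%. Of the 9969 genes at or above the median level 56.6% lay below 0, and 36.6% did so in both replicate pairs. For 1746 of the 9969 both VPA arrays lay below both NaBu arrays, and for 1068 both lay above. limma called 0 members and 0.0% of all genes at an adjusted p under 0.05, and at an unadjusted p under 0.05 had 3 members lower, against 1.69%, and 0 higher, against 1.95%. These were Mcm10 at -0.49 (95% interval -0.83 to -0.15), Gmnn at -0.35 (95% interval -0.68 to -0.02) and E2f7 at -0.30 (95% interval -0.57 to -0.03). With the replicate block 10 members were lower and 0 higher, against 5.27% and 5.51% of all genes, and Cdca7 was among them, with a blocked interval of -0.76 to -0.25. In unblocked fits the median was -0.04 without VPA replicate 2 and -0.04 without NaBu replicate 1. It was -0.28 without NaBu replicate 2 and -0.24 without VPA replicate 1. Cdca7 had the lowest difference, -0.51 (95% interval -1.11 to 0.10), and Rfc4 the highest, 0.22 (95% interval -0.19 to 0.63).

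**Figure D4:**
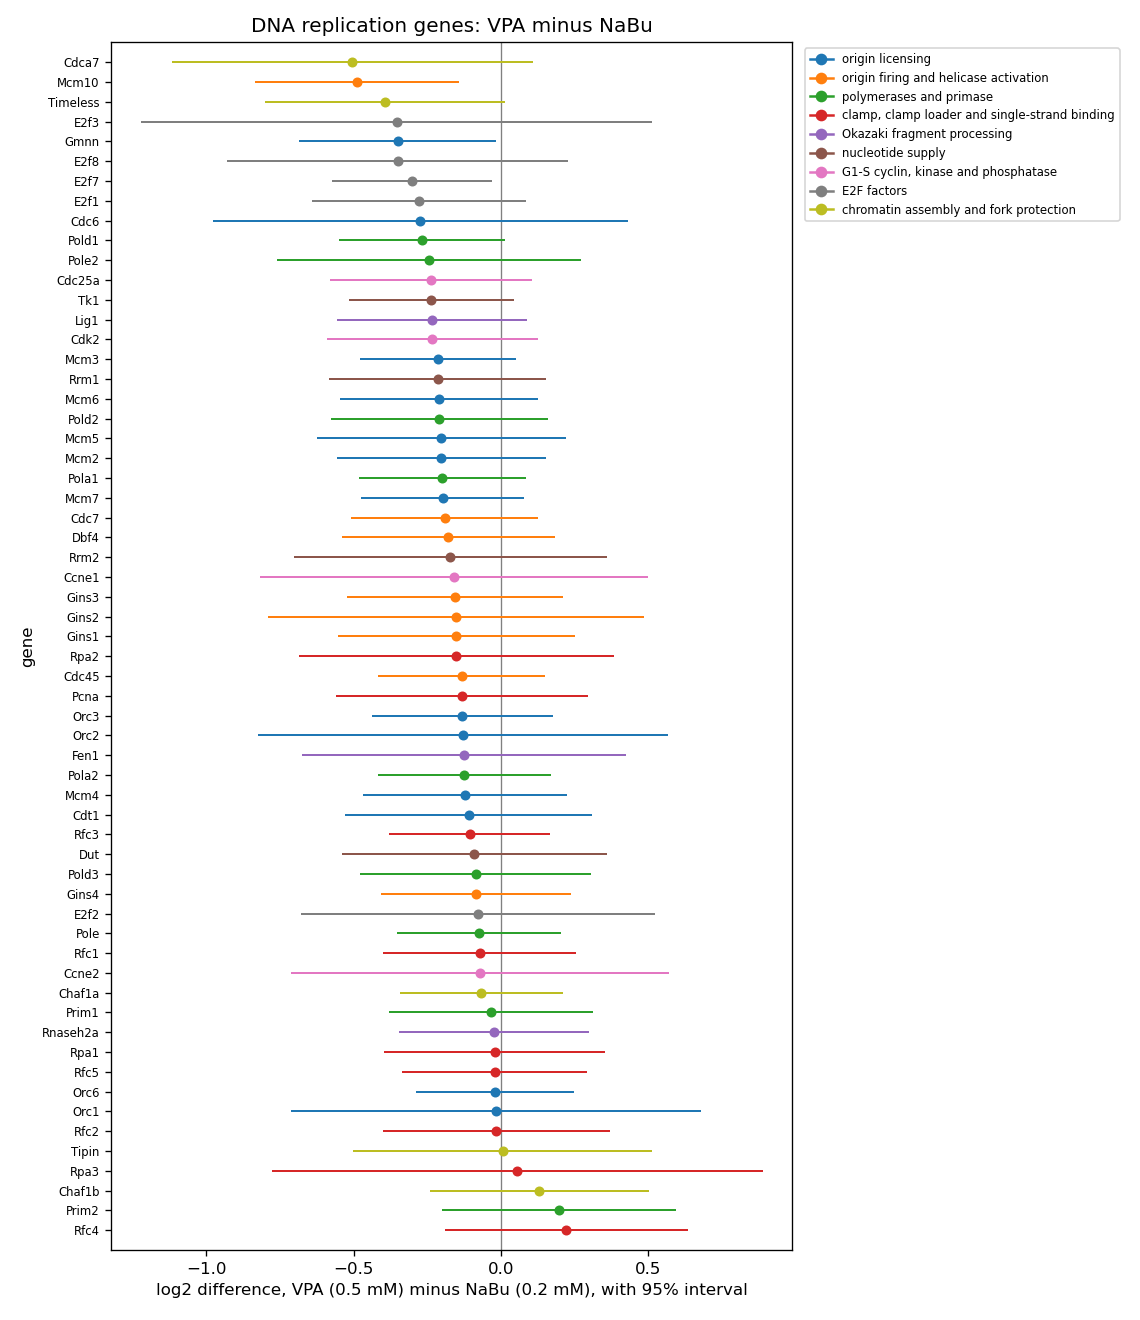
Log2 difference of VPA (0.5 mM) minus NaBu (0.2 mM) for each of the 60 genes with its 95% interval from limma (n = 2 arrays each), ordered from the lowest to the highest and coloured by role. Of the 60 points 55 are below 0, and the intervals of Mcm10, Gmnn and E2f7 lie below 0 throughout.

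Members with and without an exact E2F core in a window had like values for VPA against untreated cells. The 30 members with a core in a window had a median of -0.20, with 27 below 0, and the 20 with a window but no core had a median of -0.19, with 19 below 0. With a CCAAT box the median was -0.19, and without one it was -0.20. For VPA minus NaBu the median was -0.20 with an E2F core and -0.13 without one, with 27 and 20 below 0. These differences between groups of members were not tested. Lack of an exact match in a window does not show that a gene is not an E2F target. Other genes of the pathway, 62 measured of 66 written, had a VPA median of -0.13, with 46 below 0, and a NaBu median of -0.02, with 34 below 0. At an adjusted p under 0.05 none of them passed, and at an unadjusted p under 0.05 there were 3 lower and 3 higher with VPA, against 2.18% and 2.74% of all genes, and 0 with NaBu. With the replicate block there were 15 lower and 3 higher with VPA, against 6.01% and 7.21%, and 0 with NaBu. The largest statistics for VPA were all above 0. They belonged to Rb1, the retinoblastoma protein that restrains E2F, at 0.46 (95% interval 0.18 to 0.75), to the fork protein Donson at 0.37 (0.04 to 0.71), and to Rbl1, a relative of Rb1, at 0.32 (0.03 to 0.61). Rb1 had 8.24 and 8.14 with VPA, 7.89 and 8.01 with NaBu, and 7.71 and 7.75 in untreated cells, so that the groups did not overlap. With NaBu the largest statistics belonged to Rb1 at 0.22 and to the RNase H2 subunits Rnaseh2b and Rnaseh2c at -0.22 each. Mitosis genes, 43 measured of 45 written, had a VPA median of -0.16, with 38 below 0, and a NaBu median of -0.03. With VPA 79.1% of them lay below 0 in both replicate pairs, beside 80.0% of the members and 28.0% of all genes. For 19 of the 43 both VPA arrays lay below both untreated arrays, against 15.6% of all genes. At an unadjusted p under 0.05 limma had 5 lower and 0 higher with VPA, against 2.18% and 2.74%. Nusap1, Kif20a and Plk1 had the largest statistics for VPA, at -0.53, -0.33 and -0.42. Birc5, Ccnb2 and Nusap1 had the largest for NaBu, at -0.29, -0.16 and -0.12.

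Same-condition arrays differed by about as much as VPA and untreated cells did. Members stood lower on replicate 2 than on replicate 1 by a median of -0.18 with VPA, -0.15 with NaBu and -0.13 in untreated cells, with 50, 47 and 45 of 60 below 0. The 19 measured feeder fibroblast markers stood higher on replicate 2, by a median of 0.51, 0.44 and 0.36, and their part in the members' values was not tested. Their median level was 6.76 and 7.43 with VPA, 6.87 and 7.41 with NaBu, and 6.73 and 7.24 in untreated cells, and Lum was the dimmest, between 2.93 and 3.49. For VPA against untreated cells the feeder medians were -0.16 in replicate 1 and 0.17 in replicate 2, while those of the members were -0.15 and -0.20. For the group means the feeder median with VPA was 0.04, with 8 of 19 below 0, against 47.0% of all genes. Opposite signs in the replicate pairs were seen for 16 of the 19, against 7941 of all 19938 genes. For NaBu the feeder median was 0.14, with 15 of 19 above 0 and 10 above 0 in both replicate pairs, beside the member median of -0.04. The feeder markers with the largest statistics were Col5a1, Thy1 and Tagln for VPA, at 0.22, 0.21 and 0.21, and Acta2, Tagln and Col1a1 for NaBu, at 0.28, 0.30 and 0.41. The 10 stem cell markers had log2 values of 7.42 or more on every array. Their median was -0.30 for VPA, with Pou5f1 at -0.64, Utf1 at -0.59 and Fgf4 at -0.86. It was -0.03 for NaBu, with Pou5f1 at -0.14, Sox2 at -0.18 and Fgf4 at -0.17. With NaBu 7 of the 10 lay below 0, against 45.7% of all genes, and 3 did so in both replicate pairs, against 23.1%. Opposite signs in the replicate pairs were seen for 6 of the 10 with NaBu. With VPA 9 of the 10 lay below 0 in both pairs, against 28.0% of all genes.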

How the data were processed

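Expression was measured on 6 one-colour Affymetrix arrays. The deposited values are log2 expression per probeset, which the authors made by RMA. Affymetrix Expression Console 1.1 is the software that the submitters' processing notes name. Its settings are unknown here. Of 35556 probesets, 21789 carried 1 gene symbol in the platform annotation, 1621 carried several and 12146 had none listed. The probeset with the highest mean stood for each of 19938 genes, with no filter on low values.

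Tests used lmFit and eBayes of limma 3.58.1 under R 4.3.3, fitting 1 mean per group over the 6 arrays, with 3 residual degrees of freedom and Benjamini-Hochberg adjustment over all genes at 0.05. The same fit with the replicate number as a block leaves 2. Intervals are from the fit without the block unless the block is named, so they also hold the gap between replicate numbers. Deviations of same-numbered arrays from their group means correlated over genes with r = 0.558 for VPA and control, 0.693 for NaBu and control and 0.567 for VPA and NaBu, so the numbers were taken to pair the samples; the labels give the number and no shared culture. The labels do not say that replicates are separate cultures, so p-values measure the spread between samples. An exact permutation test of 2 against 2 arrays cannot go below p = 0.333 and was not used. Precision is limited by the small number of arrays. The limma procedure was tested on simulated data. Of 100 genes changed by 1 log2 unit, the fit without the block called 28 at an adjusted p under 0.05. With the block it called 61. Differences as small as those of the members were not simulated, so 0 calls do not show that the members were unchanged.

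The members, the role groups and the other lists (other replication genes, mitosis, stem cell and feeder markers) were chosen with earlier results of these data known. Array values are given for 15 genes listed by name and for the members with the largest moderated statistic, 6 for each compound against control and 3 for VPA against NaBu. They are also given for Cdca7 and Rb1, chosen after their values were seen. The largest 3 statistics of each other list are named. Comparisons of each compound with control share the control arrays. Alternatives were the block, median centring, quantile normalization, 2 filters on dim genes, a variance trend, fits on 4 arrays, probeset means and leaving out each array.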

Additional observations from a re-analysis of the deposited data

How the results depend on the processing

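Genes at an adjusted p under 0.05 numbered 0 in each comparison under all alternatives run with limma. With the replicate block the unadjusted count over all genes was 2636 for VPA, 916 for NaBu and 2150 for VPA against NaBu, against 981, 311 and 724 without it. The block changed no call. Leaving out 1 array gave a member median of -0.28 to -0.076 for VPA against control, -0.13 to 0.075 for NaBu against control and -0.28 to -0.035 for VPA against NaBu. Members below 0 then numbered 41 to 59, 15 to 49 and 36 to 57. Such fits are unblocked and carry some of the gap between replicate numbers. Of 22 members given with array values under the rule, 17 kept their sign for VPA under all alternatives, 8 for NaBu and 13 for VPA against NaBu. With 1 array left out the sign turned for these in VPA against control, Ccne1 (-0.40 to 0.15), Ccne2 (-0.42 to 0.070), Orc1 (-0.46 to 0.071), Rfc4 (-0.14 to 0.22) and Rrm2 (-0.46 to 0.0041). In NaBu against control it turned for Ccne1 (-0.21 to 0.29), Ccne2 (-0.44 to 0.23), Cdc25a (-0.22 to 0.076), Cdc6 (-0.36 to 0.21), Cdt1 (-0.22 to 0.092), Dut (-0.30 to 0.071), Mcm10 (-0.077 to 0.20), Mcm2 (-0.18 to 0.078), Mcm6 (-0.13 to 0.0495), Orc1 (-0.46 to 0.11), Pcna (-0.19 to 0.21), Pola1 (-0.061 to 0.086), Pold1 (-0.0303 to 0.046) and Rrm2 (-0.29 to 0.18). In VPA against NaBu it turned for Ccne1 (-0.44 to 0.12), Ccne2 (-0.41 to 0.27), Cdc6 (-0.56 to 0.0085), Cdt1 (-0.27 to 0.045), Dut (-0.28 to 0.094), Orc1 (-0.31 to 0.27), Pcna (-0.33 to 0.067), Rfc5 (-0.0799 to 0.036) and Rrm2 (-0.38 to 0.039). Quantile normalization turned Pcna (-0.0003) and Pold1 (-0.0099) for NaBu, and Orc1 (0.023) and Rfc5 (0.0224) for VPA against NaBu.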
